A study of Mus musculus with 4 samples.

Results

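The genes described here build the contacts between cells of the seminiferous tubule: the tight, gap and adherens junctions and the actin-based ectoplasmic specialization. They are 35 genes chosen by symbol from a list, of 55450 gene identifiers in the files. By role they are 5 claudins, 8 other membrane proteins and 6 plaque proteins of tight junctions, 2 gap junction connexins, 5 membrane and 5 plaque proteins of adherens junctions, and 4 proteins of the ectoplasmic specialization and its integrin. Igsf5 has a pair of identifiers, the second of them an overlapping gene model with 0 UMIs in every library, and the first was used. RNA was read cell by cell in dissociated mouse testis, in 2 libraries labelled HFD (high-fat diet) and 2 labelled ND (the comparison diet). Transcripts were captured in droplets at their 3' ends and counted by unique molecular identifiers (UMIs). The labels give no strain, age, duration of feeding or genotype, and do not say whether the libraries of a diet are different mice, so the p-values below measure only the spread between these libraries, which may be technical.

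The blood-testis barrier lies between neighbouring Sertoli cells near the base of the tubule. Claudin strands, adherens junctions, gap junctions and bundled actin of the basal ectoplasmic specialization sit there side by side, and early meiotic cells cross it on their way to the lumen. A related structure, the apical ectoplasmic specialization, holds elongating spermatids to the Sertoli cell, with nectin 2 on the Sertoli side bound to nectin 3 on the spermatid side. Germ cells therefore carry junction proteins of their own.

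Promoters are shown for the members whose highest level fell in Sertoli-like cells (Cldn11, Espn and Cldn3) and for Ctnna2, whose highest level among the named classes fell in round spermatid-like cells. The RefSeq promoter table, build GRCm38.p6, held 35 promoters for 24 of the 35 members. Each sequence is the 250 bases upstream of the start, written 5′ to 3′ on the strand of the gene, with capitals for matches to 6 motifs searched on both strands. Cldn11 lies upstream at chr3:31149670-31149919 (+), Cldn3 at chr5:134985964-134986213 (+), Espn at chr4:152152390-152152639 (-) and Ctnna2 at chr6:77979668-77979917 (-).
Cldn11: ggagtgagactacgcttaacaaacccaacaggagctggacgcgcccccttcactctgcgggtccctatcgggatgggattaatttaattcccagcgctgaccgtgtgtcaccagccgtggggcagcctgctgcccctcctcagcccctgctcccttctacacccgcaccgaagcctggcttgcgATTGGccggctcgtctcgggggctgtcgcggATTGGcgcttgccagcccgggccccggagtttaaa
Cldn3: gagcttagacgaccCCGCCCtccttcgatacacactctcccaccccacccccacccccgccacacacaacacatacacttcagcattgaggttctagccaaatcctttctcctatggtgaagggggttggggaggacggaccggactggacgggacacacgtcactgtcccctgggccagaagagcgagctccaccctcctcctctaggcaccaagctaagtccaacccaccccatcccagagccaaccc
Espn: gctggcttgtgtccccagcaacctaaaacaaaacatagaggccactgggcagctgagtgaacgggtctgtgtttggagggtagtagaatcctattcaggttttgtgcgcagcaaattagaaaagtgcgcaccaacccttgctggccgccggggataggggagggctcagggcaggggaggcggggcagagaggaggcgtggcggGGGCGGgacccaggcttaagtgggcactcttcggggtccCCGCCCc
Ctnna2: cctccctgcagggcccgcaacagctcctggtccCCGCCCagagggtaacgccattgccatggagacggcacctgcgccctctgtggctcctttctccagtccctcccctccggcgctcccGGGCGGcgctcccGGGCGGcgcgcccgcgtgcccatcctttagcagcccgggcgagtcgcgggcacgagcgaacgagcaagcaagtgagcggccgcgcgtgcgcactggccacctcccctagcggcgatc

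The Cldn11 promoter held the CCAAT box on the opposite strand at 31 to 35 and at 62 to 66 bases upstream of the start. The Cldn3 promoter held 1 GC box, on the opposite strand at 231 to 236 bases upstream. In the Espn promoter, 1 of 3 for this gene in the table, a GC box stood at 41 to 46 bases on the same strand and at 2 to 7 bases on the opposite strand. In Ctnna2 the GC box occurred at 112 to 117 and 125 to 130 bases on the same strand and at 212 to 217 bases on the opposite strand. The table's start lay 18 bases from the GENCODE start for Espn and 32 bases for Ctnna2. Of all 32851 promoters of this length in the table, the CCAAT box (CCAAT) was in 33.8% and the GC box (GGGCGG) in 32.7%. The cAMP response element, written TGACGTCA, was in 1.55% of them. For a SOX motif, spelled AACAAT, the share was 9.42%. A GATA motif with the letters AGATAA had a share of 9.99%. An androgen receptor half-site, searched as AGAACA, had a share of 16.1%. A match is a string of letters, not a measured binding site.

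Each library held 13561 to 15290 barcodes and 143748262 to 154221188 UMIs, and 13094 to 14429 cells were kept, with a median of 5521 to 5966.5 UMIs. Between libraries 296 barcodes of kept cells were shared. Cells were clustered without the 35 members and 92 other junction genes, and clusters were named from marker genes, which gave 11 classes. Clusters that did not meet the naming rule held 5171 to 5680 cells per library. Sertoli-like cells numbered 297, 309, 382 and 347 in HFD 1, HFD 2, ND 1 and ND 2, the order used throughout. The level of a gene is given in CPM, its UMIs per 1000000 UMIs of the class. Since only 3' ends were counted, CPM compares classes within a gene and not genes with each other.

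The summed Sertoli markers stood at 3333, 2740, 2848 and 3185 CPM in Sertoli-like cells, 51.2 times the level of all cells, with 0 of 9 markers absent. The same cells also held the 8 elongating spermatid markers at 73969 to 91781 CPM, 3.03 times the level of all cells, the spermatogonia markers at 9.20 to 12.4 times and the pachytene markers at 0.688 times. The spermatogonia list was also at 7.03 times in Leydig-like cells, and which of its genes are particular to germ cells was not tested. The part of germ-cell RNA in the levels below was not tested either. Relative to all cells, 3 members exceeded all 5 germ-cell marker lists in Sertoli-like cells of all 4 libraries (Cldn11, Cgn and Ocln). Against the pachytene, round and elongating spermatid lists alone, F11r, Pard6b, Espn, Cldn3, Nectin2 and Ctnna1 did so as well. The peritubular myoid-like class held its own 6 markers at 156 and 53.6 CPM in the HFD libraries against 531 and 440 CPM in ND. Levels in all HFD cells were 135 and 126 CPM, so the HFD cells of this class did not stand apart by its markers. The class also held the fibroblast markers at 527, 872, 1635 and 517 CPM. That was 73.7 times the level of all cells, against 1.90 times for its own markers.

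Members spread over 10 of the 11 named classes by their highest mean level: 13 were highest in spermatogonia-like cells, 4 in Leydig-like, 3 each in Sertoli-like, early spermatocyte-like and fibroblast-like cells, 2 each in pachytene, round spermatid-like, elongating spermatid-like and macrophage-like cells, and 1 in the peritubular myoid-like class. For 12 of the 35, every library of the highest class was above every library of the next, among them 4 of the 13 in spermatogonia-like cells and 0 of those in early spermatocyte-like and fibroblast-like cells. Only the next class by mean was compared for this count, so a library of a class further down may lie higher. With 10 UMIs or more, 12 members had a higher mean in an unnamed cluster than in any named class, 7 of them in the cluster of 43 cells described below (Cldn5, Esam, Itga6, Tjp1, Ctnna1, F11r and Ctnnb1). The highest class below is therefore the highest of the named ones. None of these counts was made over all genes, so they describe the members and do not set them apart from other genes. In spermatogonia-like cells Tjp3, Cdh1 and Ocln ranked first on only 7, 4 and 4 UMIs. The heat map of levels by class shows this spread.

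**Figure D1:**
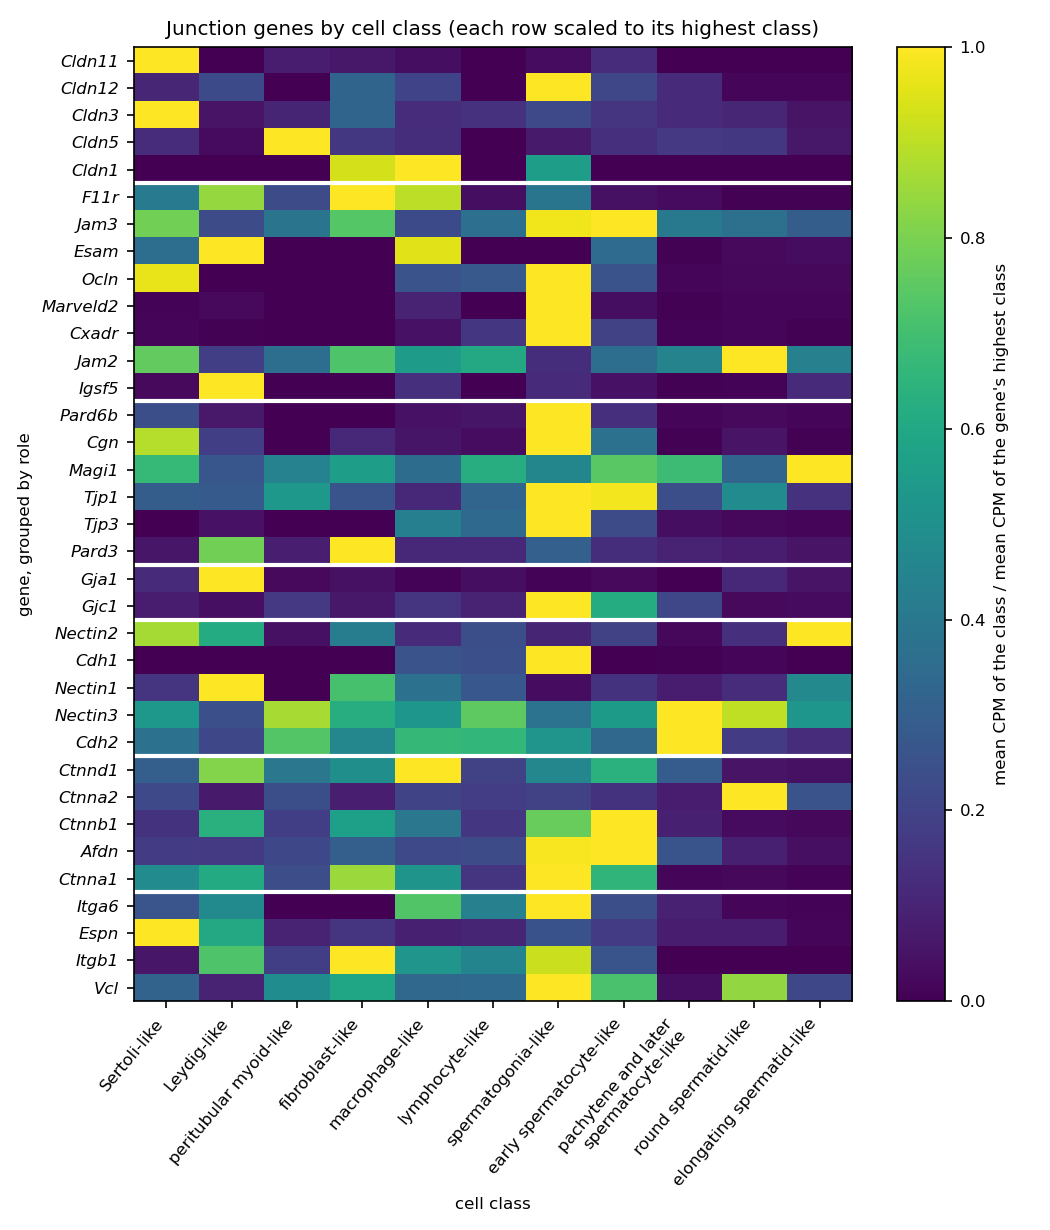
Mean CPM over the 4 libraries for each junction gene (rows, grouped by role) in each cell class (columns), divided by the mean of the gene's highest class, so that the colour runs from 0 to 1. Cldn11, Espn and Cldn3 peak in Sertoli-like cells, 13 genes peak in spermatogonia-like cells, and several rows rest on fewer than 10 UMIs in their highest class (Cldn1, Cldn5, Esam, Tjp3, Cdh1 and Ocln).

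Among the claudins, Cldn11 (ENSMUSG00000037625, chr3:31149920-31164324), the strand-forming claudin of Sertoli cells, was highest in Sertoli-like cells. Its levels were 66.2, 60.7, 61.2 and 83.3 CPM, a mean of 67.9 ± 10.6 (SD, n = 4 libraries) on 432 UMIs. Every one of these was above every library of the next class, early spermatocyte-like cells, at 8.69 ± 1.78 CPM, a class in which the Sertoli markers also stood at 330.0 to 402 CPM. Cldn3 (ENSMUSG00000070473, chr5:134986214-134987472), a barrier claudin known to respond to androgen, was at 20.3, 21.1, 15.2 and 22.5 CPM in Sertoli-like cells, on 125 UMIs. The next class, fibroblast-like cells, had 6.40 ± 8.24 CPM on 3 UMIs, and its libraries overlapped. Cldn12, a broadly expressed claudin, was at 15.8, 14.9, 18.5 and 3.62 CPM in spermatogonia-like cells, on 16 UMIs. Cldn5, the claudin of endothelial tight junctions, reached 13.2 ± 12.3 CPM in the peritubular myoid-like class on 6 UMIs. Cldn1, a claudin of surface epithelia, had 10 UMIs in all kept cells and 0 in Sertoli-like cells, where 3 UMIs would correspond to 0.472 CPM.

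Cldn5 reached its highest level outside the named classes. Of its 1324 UMIs in all kept cells, 419 were in pachytene cells, at 2.21 CPM, and round spermatid-like cells held 2.16 CPM. A cluster of 43 cells (8, 12, 14 and 9 by library) had endothelial markers as its nearest list, with 7 of 7 above the other clusters, but it stayed unnamed because its cells were shallow and none of those markers was among its 10 leading genes. Cldn5 led that cluster at 1915, 2071, 882 and 963 CPM, from 68, 92, 23 and 35 UMIs. The HFD libraries lay above both ND libraries. This difference was not tested, since unnamed clusters were left out of the tests and each library held fewer than 20 of these cells. The share of all genes with such a gap in this cluster was not counted. Esam, an adhesion molecule of endothelial contacts, stood at 225, 315, 192 and 193 CPM in the same cells, from 34 UMIs in all. The highest mean level of Esam in a named class was 0.881 CPM, in Leydig-like cells on 7 UMIs.

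Of the other tight junction membrane proteins, none was highest in Sertoli-like cells. Ocln, occludin, was at 3.51 ± 2.97 CPM in spermatogonia-like cells on 4 UMIs and at 3.39 ± 1.79 CPM in Sertoli-like cells on 22 UMIs, so the order of these classes was not resolved at this depth. Marveld2, tricellulin, which seals the corners where cells meet, stood apart in spermatogonia-like cells at 22.1, 18.7, 9.26 and 14.5 CPM, and the next class had 1.62 CPM. Cxadr, the coxsackie and adenovirus receptor, was likewise at 19.0, 22.4, 18.5 and 10.9 CPM there, with no library of another class as high. The junctional adhesion molecules were split: among the named classes, F11r (JAM-A) had its highest mean in fibroblast-like cells at 51.0 ± 14.8 CPM, Jam2 (JAM-B) in round spermatid-like cells at 32.5 ± 1.86, and Jam3 (JAM-C) in early spermatocyte-like cells at 49.5 ± 11.2. F11r in fibroblast-like cells rested on 28 UMIs and overlapped with macrophage-like cells at 45.9 CPM, and Jam3 overlapped with spermatogonia-like cells at 48.5 CPM. Of the unnamed clusters, the one of 43 cells had a mean of 80.9 CPM of F11r on 12 UMIs, and one of 51 cells had 62.3 CPM of Jam3 on 26 UMIs. Jam2 in round spermatid-like cells (34.4, 31.9, 30.1 and 33.4 CPM) was above all libraries of Sertoli-like cells, at 24.7 ± 3.41. It was higher still in every library of an unnamed, shallow cluster of 7042 cells nearest to the pachytene markers, at 47.4, 43.6, 44.7 and 41.7 CPM on 1244 UMIs. Igsf5 (JAM4) was at 4.54, 8.31, 5.68 and 7.04 CPM in Leydig-like cells, above every other class.

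The plaque proteins link these strands to actin and to cell polarity. Cgn, cingulin, was at 9.48, 37.3, 34.0 and 43.4 CPM in spermatogonia-like cells and at 27.6 ± 5.69 CPM in Sertoli-like cells, and the libraries of both classes overlapped. Pard6b, a polarity scaffold, was at 12.6, 14.9, 21.6 and 21.7 CPM in spermatogonia-like cells, all above the 4.24 ± 1.70 CPM of Sertoli-like cells. Tjp1 (ZO-1), the main scaffold of the plaque, was at 47.4, 52.2, 58.6 and 116 CPM in spermatogonia-like cells, with a mean of 67.3 ± 10.5 CPM in early spermatocytes, and its Sertoli-like level was 20.1 CPM. Magi1, another scaffold, was highest among the named classes in elongating spermatid-like cells at 27.8, 28.2, 27.9 and 32.4 CPM. It was higher in every library of an unnamed cluster of 1703 cells nearest to the pachytene markers, at 43.0, 42.7, 41.5 and 48.2 CPM on 1197 UMIs. Pard3 was at 23.2 ± 7.74 CPM in fibroblast-like and 18.3 ± 1.72 in Leydig-like cells. Tjp3 (ZO-3) had 0 UMIs in Sertoli-like cells and 7 in spermatogonia-like cells.

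Both connexins, the channel subunits of gap junctions, peaked outside the Sertoli-like class. Gja1 (ENSMUSG00000050953, chr10:56377330-56402513), the main connexin of the tubule and of Leydig cells, was at 156, 168, 138 and 141 CPM in Leydig-like cells. All 4 values exceeded every library of Sertoli-like cells, at 18.2 ± 4.57 CPM, and round spermatid-like cells followed at 16.6 ± 1.18. Gjc1 was at 104, 112, 108 and 90.5 CPM in spermatogonia-like cells, above all libraries of early spermatocyte-like cells (64.1 ± 8.25), and it was at 22.1 CPM in pachytene and 2.72 CPM in round spermatid-like cells.

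Of the 5 membrane proteins of adherens junctions, 3 were highest among the named classes in pachytene or elongating spermatid-like cells (Nectin3, Cdh2 and Nectin2). Nectin3 (ENSMUSG00000022656, chr16:46387706-46498525) was at 375, 383, 372 and 390 CPM in pachytene and later spermatocyte-like cells, above all libraries of round spermatid-like cells at 344 ± 7.94, and it was at 200 CPM in elongating spermatid-like cells. Nectin2 (ENSMUSG00000062300, chr7:19716644-19750483), its partner, was at 80.6, 80.8, 88.4 and 83.1 CPM in elongating spermatid-like cells and at 71.9 ± 7.67 in Sertoli-like cells, whose libraries overlapped. An unnamed cluster of 794 cells, nearest to the elongating spermatid markers but shallow, with a median of 1985.5 UMIs, held Nectin2 at 135, 123, 95.1 and 116 CPM on 252 UMIs, above elongating spermatid-like cells in every library. Pachytene cells had 1.95 CPM of Nectin2. Cdh2, N-cadherin, was highest in pachytene cells at 59.3, 61.5, 65.2 and 68.1 CPM, overlapping with the peritubular myoid-like class on 18 UMIs. Nectin1 was at 22.8 ± 3.71 CPM in Leydig-like cells. Cdh1, E-cadherin, had 20 UMIs in all kept cells, 4 of them in spermatogonia-like cells and 0 in Sertoli-like cells.

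The catenins couple cadherins to actin, and afadin does the same for nectins. Ctnnb1, beta-catenin, was at 158, 149, 174 and 184 CPM and Afdn, afadin, at 115, 106, 137 and 119 CPM in early spermatocytes, each overlapping with spermatogonia-like cells. In pachytene cells the mean levels were 14.7 CPM for Ctnnb1 and 30.9 CPM for Afdn. The unnamed cluster of 1703 cells nearest to the pachytene markers held 100 and 70.9 CPM of them. The alpha-catenins differed in where they peaked. Ctnna1, the epithelial form, was at 78.9 ± 7.17 CPM in spermatogonia-like cells and 1.76 CPM in round spermatid-like cells, whereas Ctnna2 (ENSMUSG00000063063, chr6:76881637-77979699), known from neurons, was at 42.0, 40.4, 42.4 and 44.1 CPM in round spermatid-like cells. Among the named classes, elongating spermatid-like cells followed at 10.8 ± 0.251 CPM. An unnamed cluster of 2112 cells, nearest to the round spermatid markers but shallow, with a median of 1877.5 UMIs, held Ctnna2 at 52.2, 75.6, 96.4 and 82.3 CPM on 369 UMIs, above round spermatid-like cells in every library. The Ctnna2 gene body overlaps 9 other gene models on its strand, and reads that they share cannot be told apart here. Ctnnd1, a catenin that stabilises cadherins, was at 51.0 ± 6.36 CPM in macrophage-like and 41.6 ± 5.81 in Leydig-like cells.

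Espn (ENSMUSG00000028943, chr4:152120331-152152371), the actin-bundling protein of the ectoplasmic specialization, was at 161, 150, 174 and 166 CPM in Sertoli-like cells on 1036 UMIs. All 4 values exceeded every library of Leydig-like cells, which held 98.1 ± 10.0 CPM, while the median Sertoli marker in Leydig-like cells stood at 0.00875 of its Sertoli-like level. The summed Sertoli list was at 682 to 808 CPM in Leydig-like cells, 12.8 times the level of all cells, with Ctsl at 1.08, Amhr2 at 0.897 and Aard at 0.120 of their Sertoli-like levels and the other 6 markers at or under 0.0169. Espn there was at 0.603 of its Sertoli-like level, and the part of Sertoli RNA in it was not tested. Vcl, vinculin, was at 28.4, 18.7, 40.1 and 43.4 CPM in spermatogonia-like cells, overlapping with the 27.4 ± 0.668 CPM of round spermatid-like cells. Of the integrin subunits of spermatid anchoring, Itgb1 was at 149 ± 43.4 CPM in fibroblast-like and 137 ± 13.0 in spermatogonia-like cells, and Itga6 at 15.3 ± 2.24 CPM in spermatogonia-like cells.

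Sertoli-like cells were then compared with all other kept cells in 1 edgeR quasi-likelihood fit with the library as a block. Of 32 members tested, 16 were higher and 3 lower in Sertoli-like cells at a Benjamini-Hochberg adjusted p under 0.05, where 43.0% of all 22306 genes tested were called (19.8% higher and 23.2% lower). The median log2 ratio was 0.48 over the members and -0.19 over all genes. The cells were grouped by other genes, but classes made from the same cells differ in many genes by construction. Cldn11 had the largest ratio, with a log2 ratio of 8.35 (SE 0.19). Ocln at 5.28 (SE 0.59), Cgn at 4.79 (SE 0.21), Espn at 3.86 (SE 0.08), Ctnna1 at 3.73 (SE 0.17) and F11r at 3.70 (SE 0.22) followed. In the other cells Ocln was too low for the low-count filter of edgeR, which it passed only through the Sertoli-like sums. Its higher level there was thus fixed by its entry into the test, although it counts among the 16. Pard6b (3.39), Cldn3 (3.34), Itga6 (2.29), Nectin2 (2.20), Itgb1 (1.63), Gja1 (1.14) and Jam3 (1.00) were also higher, as were Ctnnd1 (0.77), Ctnnb1 (0.74) and Jam2 (0.35). Lower in Sertoli-like cells were Ctnna2 at -0.83, Gjc1 at -0.65 and Nectin3 at -0.52. Tjp1, Afdn and Vcl had log2 ratios of -0.00, -0.00 and -0.03 and were not called. Scaling to library totals without TMM (the trimmed mean factor of edgeR) moved the median of all genes to -0.37 and the calls of all genes from 46.1% to 34.8% higher. It left 15 members higher and 4 lower, with Jam2 at 0.17 (adjusted p = 0.302) and Cdh2 at -0.44 (adjusted p = 0.00196).

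**Figure D2:**
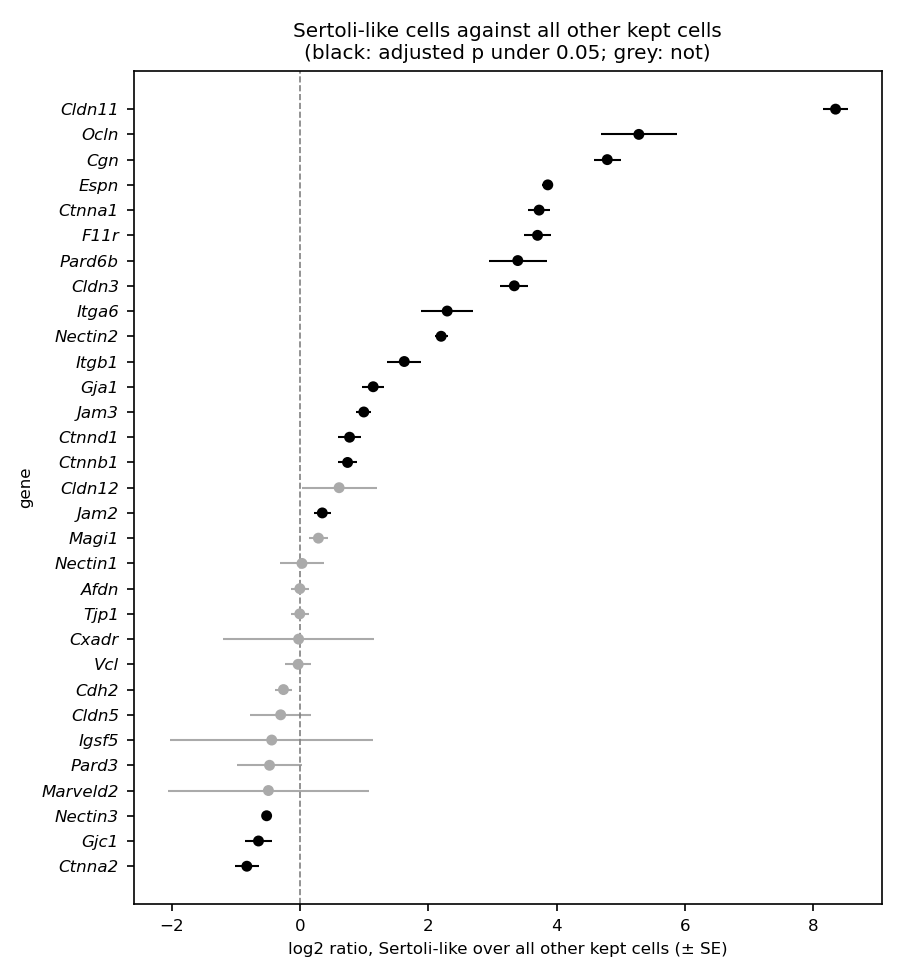
Log2 ratio of Sertoli-like cells over all other kept cells (points, with SE as bars) for 31 of the 32 members tested, black where the adjusted p was under 0.05. Tjp3 is left out because it had 0 UMIs in Sertoli-like cells, and Cldn11 lies farthest to the right at 8.35.

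Along the named germ-cell classes 9 of the members, not picked by a set rule, formed successive peaks, shown in the plot of germ-cell levels. The succession describes these 9 only, since other members did not follow it. Vcl, for example, was at 32.7, 23.3, 1.23, 27.4 and 7.10 CPM from spermatogonia-like to elongating spermatid-like cells. Gjc1, Ctnnb1, Afdn and Tjp1 were high in the classes before the named pachytene class. Cdh2 and Nectin3 peaked in pachytene cells, Ctnna2 and Jam2 in round spermatids, and Nectin2 in elongating spermatids. Tjp1 was at 16.4 CPM in pachytene cells and higher again, at 32.9 CPM, in round spermatid-like cells. The unnamed clusters with more Jam2, Ctnna2 and Nectin2 were not placed in this order. Within the spermatid classes the clusters were set in order by their elongating spermatid markers, which stood at 4150, 5612, 8617 and 39805 CPM in the 4 large round clusters and at 116521 to 202977 CPM in the 5 elongating clusters. Nectin2 was at 3.34, 2.63, 5.30 and 42.3 CPM in these round clusters and at 45.4 to 93.8 CPM in the elongating clusters. The step lay between the third and the fourth round cluster in all 4 libraries (4.23, 5.08, 5.59 and 6.05 CPM in the third; 38.3, 37.6, 48.0 and 44.1 CPM in the fourth). In the elongating cluster with the lowest marker level it was at 50.2, 39.3, 40.6 and 49.8 CPM, overlapping with the fourth round cluster. The elongating cluster with the most round spermatid markers, at 1728 CPM, held Nectin2 at 94.6, 93.7, 97.8 and 88.7 CPM, without such overlap. The overlap thus depends on the list used for the order. Ctnna2 stood at 36.1, 50.1, 49.3 and 37.0 CPM over the same round clusters and at 4.24 to 17.6 CPM in the elongating ones. Magi1 was at 6.79, 6.49, 8.52 and 18.8 CPM in the round clusters and at 9.69 to 32.2 CPM in the elongating ones. Tjp1 was at 42.6 CPM in the third round cluster and at 5.24 to 13.6 CPM in the elongating clusters. These are levels relative to all RNA of a cluster, and no test was made between clusters.

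**Figure D3:**
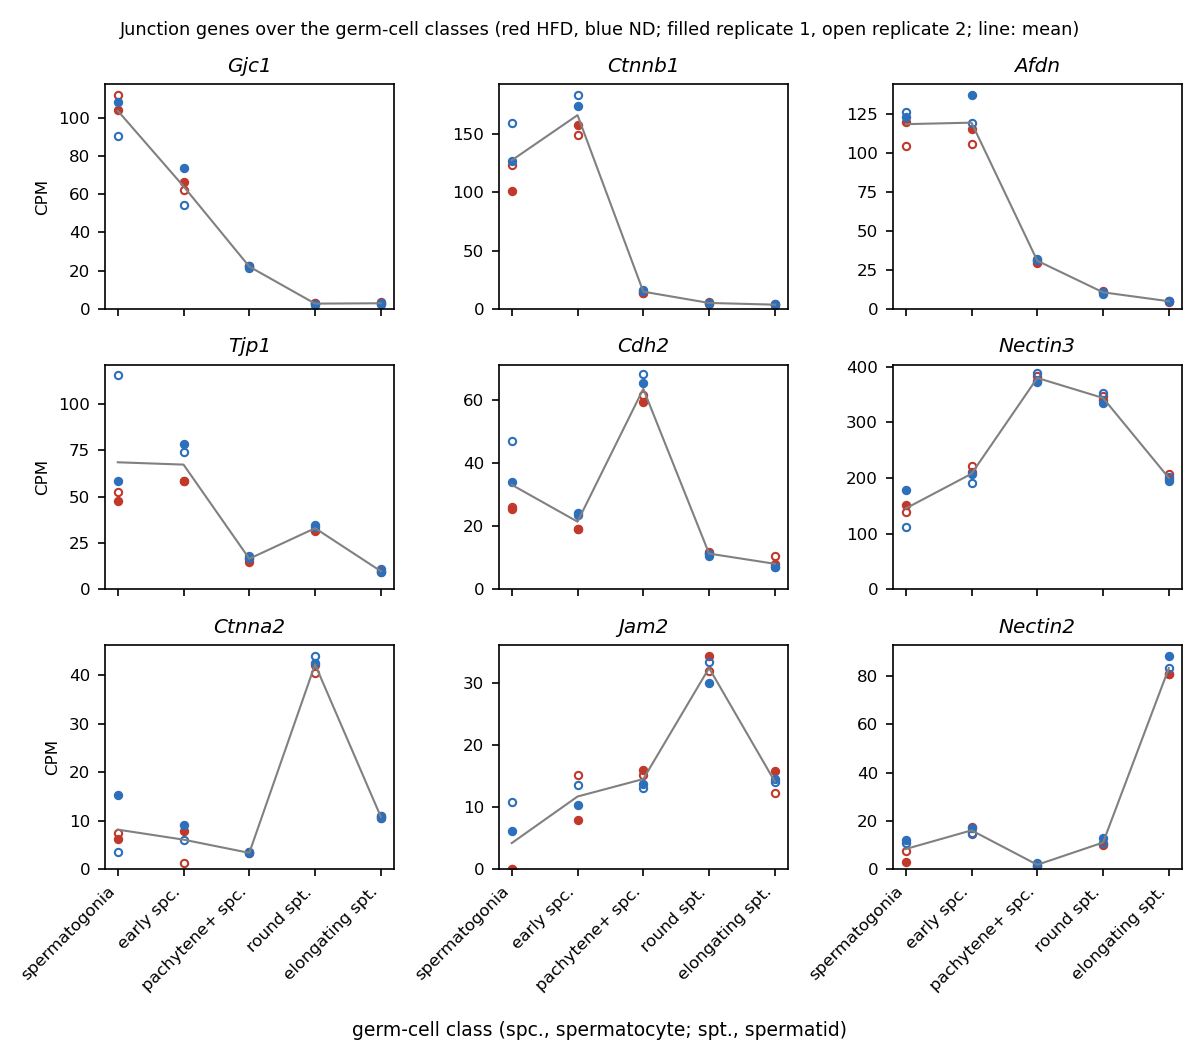
CPM of 9 junction genes in 5 germ-cell classes from spermatogonia-like to elongating spermatid-like cells, 1 point per library (red HFD, blue ND; filled replicate 1, open replicate 2) with the mean as a line and each axis from 0. Gjc1 starts at a mean of 104 CPM and Nectin2 ends at 83.2 CPM in the last class.

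The diets were compared within each class on UMIs summed per library, with edgeR's quasi-likelihood test and Benjamini-Hochberg adjustment over all genes tested in the class; ratios are log2 of HFD over ND. In Sertoli-like cells 0 of 21 members tested passed the threshold, where 0.0% of 10294 genes did. At an unadjusted p under 0.05 there was 1 member and there were 731 genes, and DESeq2 called 0 of 32 members, 0 of them at an unadjusted p under 0.05. The members' median log2 ratio was -0.18 and that of all genes -0.01. Both HFD libraries were below both ND libraries for 7 of the 21 members (F11r, Gja1, Tjp1, Vcl, Ctnna1, Nectin2 and Espn), where this held for 18.9% of all genes tested, and above for 1 (Ctnnd1), where 16.6% of all genes were. A median below that of all genes was not particular to Sertoli-like cells. The members' median was -0.32 over 12 in spermatogonia-like and -0.19 over 16 in early spermatocyte-like cells. It was -0.00 over 25 in round spermatid-like and 0.08 over 7 in macrophage-like cells.

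F11r had the largest ratio in Sertoli-like cells. It stood at 13.8 and 16.2 TMM-scaled CPM in HFD and at 26.7 and 29.6 in ND, from 20, 24, 44 and 49 UMIs. The groups did not overlap, and the log2 ratio of -0.90 (SE 0.27) had an unadjusted p of 0.0028 and an adjusted p of 0.418 in the edgeR fit. Tjp1 was at 14.5 and 19.6 against 25.5 and 22.3 TMM-scaled CPM, a ratio of -0.49 (SE 0.28). Ctnna1 was at 33.8 and 35.7 against 38.8 and 46.5, a ratio of -0.29 (SE 0.21). Nectin2 was at 66.9 and 69.5 against 86.1 and 70.6, a ratio of -0.20 (SE 0.16). Espn was at 164 and 153 against 181 and 165, a ratio of -0.12 (SE 0.13). In these 4 both HFD libraries were the lower ones, but each ratio was under 2 times its SE and none was called. Cldn11, the defining claudin, was at 67.6 and 62.0 against 63.6 and 82.7, with overlapping groups and a ratio of -0.18 (SE 0.17). Cldn3 overlapped as well, at 20.7 and 21.6 against 15.8 and 22.3. Elongating spermatid markers in Sertoli-like cells were at 78514 and 83582 CPM in HFD and at 91781 and 73969 in ND, and so overlapped. Of the 12 marker lists, 2 did not overlap in these cells: the round spermatid list was at 340 and 380 CPM in HFD against 488 and 437 in ND, and the early spermatocyte list at 72.2 and 82.5 against 86.3 and 88.2. Their part in the lower levels of the 7 members was not tested.

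**Figure D4:**
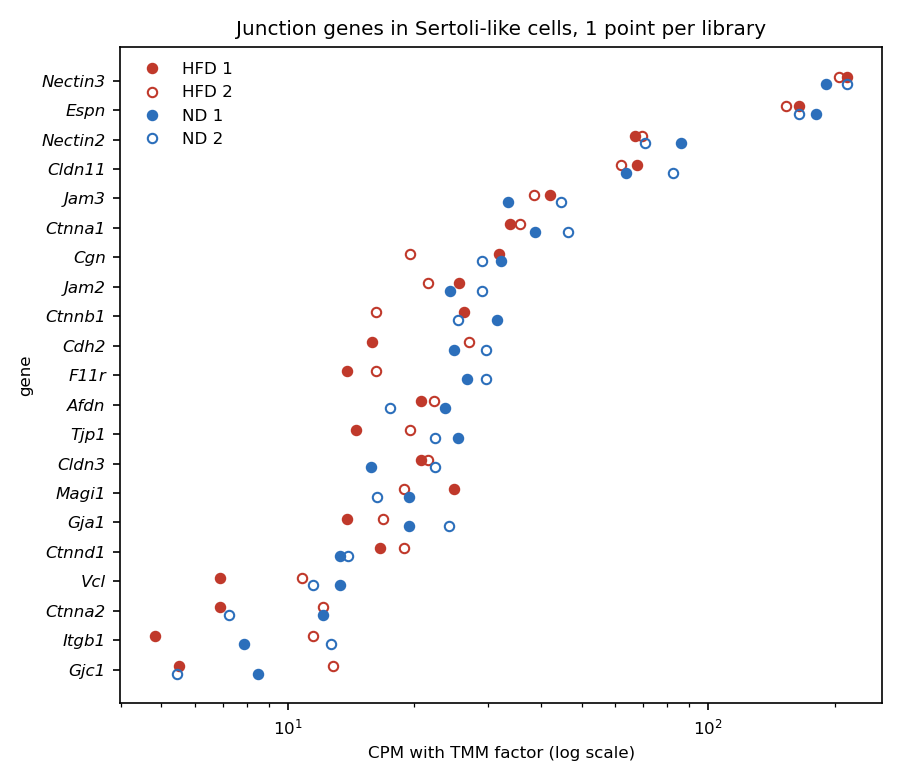
TMM-scaled CPM (log axis) of the 21 junction genes tested in Sertoli-like cells, 1 point per library (red HFD, blue ND; filled replicate 1, open replicate 2). F11r shows the widest gap, with 13.8 and 16.2 in HFD against 26.7 and 29.6 in ND, and none of the 21 passed the threshold.

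Whether the diet ratio in Sertoli-like cells differed from that in all other kept cells was tested as an interaction in the edgeR fit of both sums per library. It was called for 0 of 32 members, where 0.175% of 22306 genes were called. No member reached an unadjusted p under 0.05, and the smallest adjusted p was 0.956.

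Of the other classes, 4 had 1 called member each. In round spermatid-like cells Cldn3 was higher in HFD, at 2.40 and 2.94 TMM-scaled CPM against 1.52 and 1.46, from 100, 113, 72 and 70 UMIs. The groups did not overlap, and the log2 ratio was 0.84 (SE 0.16, adjusted p = 0.0233). It was the 1 call among 25 members tested, where 2.41% of genes were called (1.11% higher and 1.3% lower) and 47.8% did not overlap between the diets. Of the 12 marker lists, 6 did not overlap in these cells, with log2 ratios of -0.33 to 0.09. By cluster, Cldn3 was at 4.18 and 5.76 against 2.90 and 2.34 CPM in the earliest round cluster, and at 2.48 and 1.66 against 0.941 and 1.28 CPM in the next. In the other 2 large round clusters it was at or under 1.35 CPM in every library, and the diets overlapped in both. The mean Cldn3 level in round spermatid-like cells was 0.106 of the Sertoli-like level, and the highest Sertoli marker was at 0.00564 of its own. The part of Sertoli RNA in the Cldn3 ratio was not tested. Without HFD 2 the Cldn3 ratio was 0.68 (adjusted p = 0.101). In pachytene cells Cldn3 was at 2.93 and 2.70 against 2.05 and 1.95, a ratio of 0.49 (SE 0.14, adjusted p = 0.0797) that was not called.

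In Leydig-like cells Nectin3 was higher in HFD, at 119 and 99.3 TMM-scaled CPM against 77.8 and 81.6, with no overlap. The log2 ratio was 0.46 (SE 0.13, adjusted p = 0.0309), the 1 call among 20 members tested, where 4.1% of genes were called (1.95% higher and 2.15% lower) and 45.9% did not overlap between the diets. The pachytene markers in the same cells were at 640 and 614 CPM in HFD and 429 and 483 in ND, 0.328 times their level in all cells. Nectin3 itself was there at 0.239 to 0.368 times its level in all cells. The highest of the pachytene, round and elongating spermatid lists was at 0.282 to 0.371 times, and Nectin3 exceeded it in 0 libraries. Pachytene cells held the highest Nectin3 level of all classes, and the part of their RNA in the log2 ratio was not tested. In all, 8 of the 12 marker lists did not overlap, with log2 ratios of -0.63 to 0.46. The call was lost without HFD 1 (0.31, adjusted p = 0.473), without ND 1 (0.42, adjusted p = 0.205) and without ND 2 (0.49, adjusted p = 0.0902). Gja1, the leading Leydig member, was at 154.6 and 169.2 against 143.7 and 143.2 TMM-scaled CPM, a ratio of 0.17 (SE 0.11, adjusted p = 0.443).

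In pachytene cells Espn was higher in HFD, at 12.86 and 13.83 TMM-scaled CPM against 11.01 and 11.03. The groups did not overlap, and the log2 ratio was 0.28 (SE 0.07, adjusted p = 0.0491), the 1 call among 26 members tested, where 3.51% of genes were called (2.18% higher and 1.33% lower) and 50.1% did not overlap. Of the marker lists, 9 did not overlap, with log2 ratios of -0.46 to 0.25. Leaving out any 1 library ended this call, with adjusted p-values of 0.0783 without HFD 1, 0.309 without HFD 2, 0.128 without ND 1 and 0.251 without ND 2. In elongating spermatid-like cells Ctnna1 was lower in HFD, at 0.279 and 0.380 TMM-scaled CPM against 0.944 and 0.890, from 5, 6, 17 and 15 UMIs. Its log2 ratio was -1.47 (SE 0.45, adjusted p = 0.0496), the 1 call among 22 members tested, where 6.92% of genes were called (3.51% higher and 3.42% lower) and 51.0% did not overlap. Of the marker lists, 6 did not overlap, with log2 ratios of -0.24 to 0.28. The mean Ctnna1 level in these cells was 0.0162 of the Sertoli-like level, and the highest Sertoli marker was at 0.0132 of its own. The part of Sertoli RNA and of these marker differences in the 4 calls was not tested. This call too ended without any 1 library, with adjusted p-values of 0.328 (HFD 1), 0.281 (HFD 2), 0.208 (ND 1) and 0.154 (ND 2).

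In the remaining 6 classes edgeR called 0 members, of 16 tested in early spermatocyte-like, 12 in spermatogonia-like, 7 in macrophage-like, 4 in fibroblast-like, 2 in lymphocyte-like and 1 in peritubular myoid-like cells. At an unadjusted p under 0.05 there were 1 in early spermatocyte-like and 2 in spermatogonia-like cells, where 8.64% and 5.35% of all genes were, and 0 in the other 4 classes. All genes were called at 2.69% in macrophage-like, 0.0599% in lymphocyte-like and 0.0% in the other 4 of these classes. In the 4 classes with a called member, members at an unadjusted edgeR p under 0.05 were counted as well. They were 8 of 26 in pachytene (all genes 19.8%) and 4 of 20 in Leydig-like cells (16.8%). Round spermatid-like cells had 4 of 25 (17.4%) and elongating spermatid-like cells 3 of 22 (21.5%). DESeq2 called 0 members in each of the 11 classes. It set no adjusted p for 29 of 32 members in Leydig-like, 30 of 33 in elongating spermatid-like, 28 of 35 in round spermatid-like, 28 of 35 in macrophage-like and 23 of 34 in pachytene cells.

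Summed over all kept cells, the whole testis gave 14 called members of 33 tested, 3 higher and 11 lower in HFD, where 34.4% of 25461 genes were called (15.4% higher and 19.0% lower) and 67.5% did not overlap between the diets. The members' median log2 ratio was -0.06 and that of all genes -0.02. Cell mix differed between the diets: pachytene cells held 39.4% of UMIs in HFD and 29.8% in ND, round spermatid-like cells 28.2% and 36.2%, Leydig-like cells 1.06% and 1.60%, and Sertoli-like cells 1.07% and 1.26%. Numbers of kept cells differed in the same direction. Pachytene cells were 1860 and 2347 in HFD against 1656 and 1654 in ND, and round spermatid-like cells 2555 and 2678 against 3537 and 3427. Leydig-like cells were 210 and 234 against 363 and 362, and Sertoli-like cells 297 and 309 against 382 and 347. Differences in RNA per cell were not tested. Because the mix differed, the ratio that the cluster mix alone would give, with each cluster at its mean level, stands beside the fitted one.

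The 3 members that rose in HFD were a claudin, a connexin and a cadherin. Cldn3 was at 2.85 and 2.93 TMM-scaled CPM against 1.92 and 2.06, a log2 ratio of 0.54 (SE 0.10, adjusted p = 0.000875) beside 0.08 from the mix. Gjc1 was at 15.3 and 15.5 against 12.6 and 12.3, a ratio of 0.31 (SE 0.05) beside 0.23. Cdh2 was at 33.3 and 35.4 against 29.6 and 31.6, a ratio of 0.17 (SE 0.05, adjusted p = 0.0154) beside 0.24. All 3 had both HFD libraries above both ND libraries, and for Cldn3 the mix gave the smallest part of the fitted ratio.

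Among the tight junction members that fell, Cldn11 was at 0.856 and 0.872 TMM-scaled CPM against 1.09 and 1.28, a log2 ratio of -0.46 (SE 0.14, adjusted p = 0.0201) beside -0.20 from the mix. F11r was at 1.64 and 1.83 against 2.28 and 2.47, a ratio of -0.45 (SE 0.11) beside -0.15. Cgn was at 1.32 and 1.12 against 1.70 and 1.60, a ratio of -0.43 (SE 0.13) beside -0.23. These 3 members were all higher in Sertoli-like than in other cells, and each was lower in both HFD libraries than in both ND libraries. Tjp1 was at 20.7 and 21.3 against 23.6 and 25.6, a ratio of -0.23 (SE 0.05) beside -0.12. Gja1 of the gap junctions was at 8.85 and 8.68 against 10.3 and 10.0, a ratio of -0.21 (SE 0.06) that was smaller in size than the -0.34 from the mix.

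Of the adherens members that fell, Ctnna1 was at 3.08 and 3.25 TMM-scaled CPM against 4.39 and 3.92, a log2 ratio of -0.39 (SE 0.09) beside -0.19 from the mix. Ctnna2, the round spermatid form, was at 17.31 and 15.996 against 20.52 and 21.11, a ratio of -0.32 (SE 0.05) beside -0.27. Nectin2 was at 16.9 and 16.1 against 21.3 and 19.0, a ratio of -0.29 (SE 0.06) beside -0.17. Their HFD libraries lay below both ND libraries. Ctnnb1 was at 14.8 and 16.4 against 17.2 and 17.9, a ratio of -0.17 (SE 0.06, adjusted p = 0.0320) beside -0.06. Of the integrin and actin linkers, Itgb1 was at 2.861 and 2.864 against 3.769 and 4.0001, a ratio of -0.44 (SE 0.09) beside -0.31, and Vcl at 10.96 and 10.86 against 13.05 and 13.26, a ratio of -0.27 (SE 0.05) beside -0.30. Again the groups did not overlap.

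The ratio from the mix had the sign of the fitted ratio for all 14 called members, and it was at least 0.5 of the fitted one for 9. The mix was computed from these same libraries, so the pair of ratios is a description. Leaving out 1 library ended the call for 6 of the 14. Cldn11 was lost without HFD 1 (adjusted p = 0.0953), HFD 2 (adjusted p = 0.0928) or ND 2 (adjusted p = 0.0954), Ctnnb1 without HFD 1 (ratio -0.09, adjusted p = 0.293) or ND 2 (adjusted p = 0.112), and Cdh2 without HFD 2 (adjusted p = 0.164) or ND 1 (adjusted p = 0.129). Cgn and Gja1 were lost without HFD 2 (adjusted p of 0.157 and 0.0781), and F11r without HFD 1 (adjusted p = 0.0622).

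**Figure D5:**
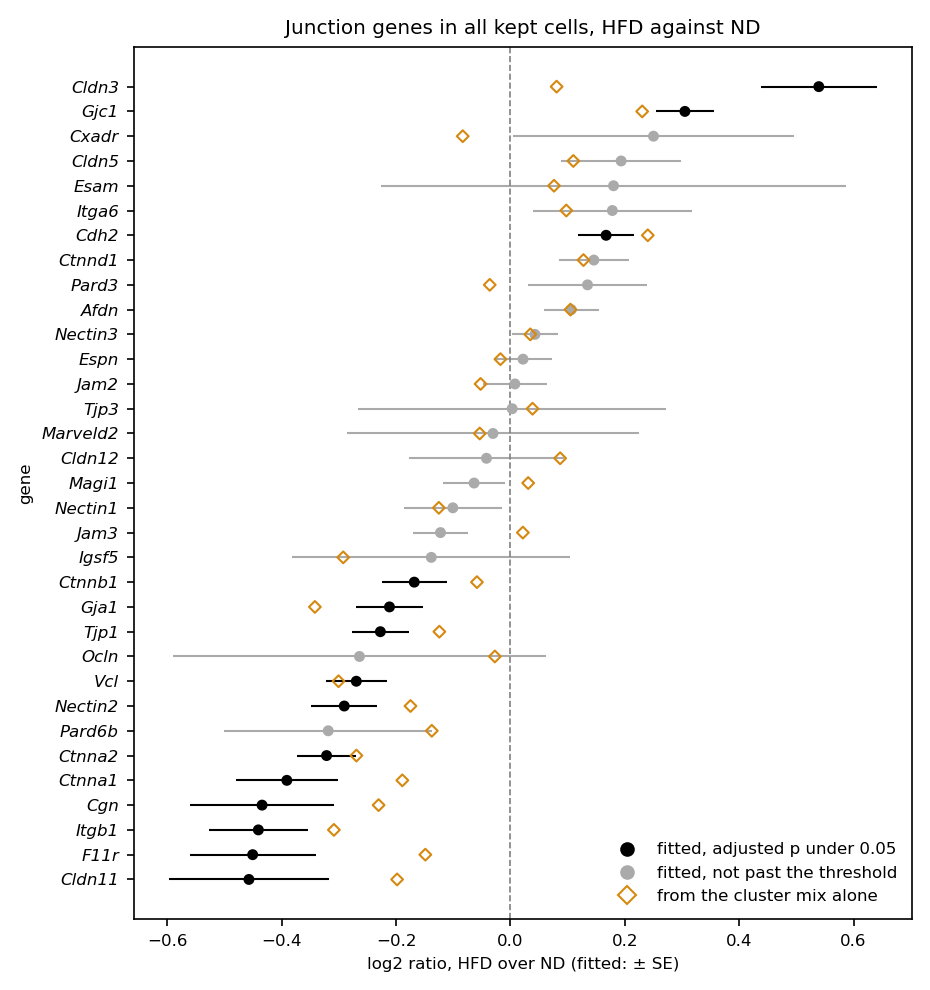
Log2 ratio of HFD over ND in all kept cells for the 33 junction genes tested (points with SE as bars; black where the adjusted p was under 0.05, grey otherwise) and the ratio from the cluster mix alone (open diamonds). Cldn3 lies at 0.54 with its diamond at 0.08, while Ctnna2, Vcl and Gjc1 lie within 0.1 of theirs.

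The 92 other junction genes, listed beside the members, were tested in the same fits. In the whole testis 8 rose and 22 fell of 73 tested, next to the 34.4% of all genes, with a median log2 ratio of -0.11. In Sertoli-like cells 0 of 36 were called by edgeR, 4 at an unadjusted p under 0.05, where 7.10% of all genes were. In elongating spermatid-like cells, where 3.42% of all genes were lower, 3 of 46 fell: Nectin4, a nectin (52.8 and 52.8 against 64.4 and 62.3 TMM-scaled CPM, ratio -0.26, SE 0.06), Actn4, an actin crosslinker (21.0 and 22.9 against 29.9 and 25.9, ratio -0.35, SE 0.09), and Sympk, symplekin (283 and 281 against 301 and 322, ratio -0.15, SE 0.04). In macrophage-like cells Actr3, an actin-nucleating subunit, was the 1 of 13 called (2.28% of all genes were lower), at 104 and 74.5 against 187 and 237, a ratio of -1.24 (SE 0.27, adjusted p = 0.00133). The macrophage markers of these cells were at 9502 and 9975 CPM in HFD against 13809 and 13637 in ND, and the Leydig markers at 333 and 140 against 69.5 and 55.0. Their part in this ratio was not tested. Leydig-like cells had 1 lower of 40, next to 2.15% of all genes, and pachytene cells 2 higher and 1 lower of 53, next to 2.18% and 1.33%, all with means under 20 CPM. Round spermatid-like cells had 0 of 57 by edgeR, 6 at an unadjusted p under 0.05, where 17.4% of all genes were.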

How the data were processed

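The authors deposited raw counts of UMIs, 1 matrix of genes by barcodes per library, not normalized per the file headers and values. The matrix header names 10x software 3.0.2, the submitters' processing notes name mm10, and the aligner is not given in the sources used here. All 55450 gene identifiers matched GENCODE M21 (GRCm38). The deposited dense copies of the counts were not used here.

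Cells needed 200 detected genes or more and a mitochondrial share of UMIs no higher than 20%. Scrublet doublets (expected rate 0.1) were removed, 449, 890, 819 and 813 by library. Clustering used scanpy 1.11.5 (2000 variable genes, 30 principal components, 15 neighbours, Leiden resolution 1) without batch correction. Clusters were named from 12 fixed marker lists, by a marker score of at least 0.9 or a marker among the 10 leading genes, with at least 3 markers above the other clusters. A cluster in which more than 1 class scored at least 2 was clustered again (1000 genes, 15 components, resolution 0.5). Clusters with a median mitochondrial share of at least 10% stayed unnamed. The same held for clusters with more leading markers of another class than of their own. Clusters with low depth stayed unnamed only if no marker of their own class was among the 10 leading genes.

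UMIs were summed per library and class (at least 20 cells per library). The sums were tested with edgeR 4.0.16 (filterByExpr, TMM, quasi-likelihood) in R 4.3.3, with a threshold of 0.05, and DESeq2 1.42.0 was an alternative. The SE was derived from the log2 ratio and its F statistic (size over root F). The members, lists and tests were chosen with earlier results of these data known. Values per library were given for every called member, for members in their highest class, and in Sertoli-like cells for up to 8 members with means of at least 20 CPM and no overlap between the diets. Cldn11, Cldn3, Gja1 and the clusters described were chosen after their values were seen. The genes in the plot of germ-cell levels were not picked by a set rule.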

Additional observations from a re-analysis of the deposited data

Results flagged for a closer look

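For 7 members, both HFD libraries lay above both ND libraries in 1 class and below them in another, and the difference between the classes was not tested. The largest gap was for Cdh2, with a log2 ratio of 0.47 (SE 0.30) in Leydig-like and -0.64 (SE 0.52) in spermatogonia-like cells, a difference of 1.11. Ctnnb1 was at 0.48 (SE 0.34) in macrophage-like and -0.36 (SE 0.25) in spermatogonia-like cells, a difference of 0.84. Nectin2 was at 0.27 (SE 0.16) in Leydig-like and -0.52 (SE 0.17) in pachytene cells, a difference of 0.79. Ctnnd1 was at 0.38 (SE 0.31) in Sertoli-like and -0.36 (SE 0.18) in Leydig-like cells, a difference of 0.74. For Gja1 the ratio was 0.17 in Leydig-like and -0.50 in Sertoli-like cells, a difference of 0.68. Nectin3 was at 0.46 in Leydig-like and -0.19 in lymphocyte-like cells, a difference of 0.65, and Espn at 0.28 in pachytene and -0.27 in Leydig-like cells, a difference of 0.54. These are 7 of the 26 members tested in 2 or more classes (26.9%). The same pattern was seen in 33.3% of all 18504 genes so tested.

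In the unnamed cluster of 43 cells nearest to the endothelial markers, which belongs to no named class and enters only the sums over all kept cells, 3 members stood more than 5 times above their highest named class: Cldn5 at 1531 CPM, Esam at 239 CPM and Itga6 at 105 CPM, on 218, 34 and 15 UMIs.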

How the results depend on the processing

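The labels give both diets replicate numbers 1 and 2, but same-numbered libraries did not deviate together (correlations of -0.05 to 0.06 over 12 comparisons), so the numbers were not used as pairs. With the replicate block, called members went from 1 to 0 in Leydig-like and from 1 to 5 in pachytene cells and from 14 to 16 in the whole testis. In the 4 classes with 1 call, the count of called members moved as follows. A count of 1 need not be the same member. DESeq2 gave 0 in Leydig-like, elongating spermatid-like, pachytene and round spermatid-like cells. Of all genes with a count, it called 103 of 24418, 437 of 29471, 287 of 32465 and 205 of 34342 in these classes. Without the low-count filter there were 0 in Leydig-like, pachytene and round spermatid-like cells, and without TMM 0 in elongating spermatid-like cells. With at most 10% mitochondrial UMIs there were 0 in elongating spermatid-like and 4 in pachytene cells. With doublets kept there were 2 in Leydig-like and 0 in elongating spermatid-like, pachytene and round spermatid-like cells. At Leiden resolution 2 there were 0 in Leydig-like, pachytene and round spermatid-like and 2 in elongating spermatid-like cells. With junction genes used in clustering there were 0 in Leydig-like, elongating spermatid-like and pachytene cells. Leaving out 1 library gave 0 to 1 in Leydig-like, elongating spermatid-like and pachytene cells, 0 to 2 in round spermatid-like cells, 10 to 14 in the whole testis and 17 to 19 of the 19 Sertoli-like differences. The cause was not tested. Apart from DESeq2, the share of all genes called is not given for these runs. Their counts of members therefore cannot be told apart from a general change in the number of calls. With 1 library of a diet left out, the remaining one is assumed to vary like those of the other diet. In the 7 classes with 0 calls, every alternative run gave 0. Peritubular myoid-like cells formed no class at 10% mitochondrial UMIs or at resolution 2, so these were not run.

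For the 4 ratios called in single classes, 16 of 45 alternative values kept the call and 29 lost it. For the 14 called in the whole testis, 122 of 140 kept the call and 18 lost it. The 5 named Sertoli-like ratios, none of them called, stayed uncalled in all 60. Of these 245 values, 0 reversed in direction. In the whole testis DESeq2 and the fit without a low-count filter each called 10 members, and DESeq2 called 6525 of 39409 genes there. DESeq2 gave no adjusted p for Nectin3 in Leydig-like, Ctnna1 in elongating spermatid-like and Cldn3 in round spermatid-like cells. The depth was 20 to 49 UMIs per library behind F11r in Sertoli-like cells, and the smallest change detectable at that depth was not tested.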
